A study of Mus musculus with 64 samples.

Results

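The genes described here are 10 members of the matrix metalloproteinase system of the mouse heart. Of these, 6 encode matrix metalloproteinases (MMPs), namely Mmp2, Mmp3, Mmp9, Mmp12, Mmp14 and Mmp19, and 4 encode the tissue inhibitors of metalloproteinases (TIMPs), Timp1, Timp2, Timp3 and Timp4. They were taken by symbol from a fixed list, and all 10 were among the 20637 genes of the deposited expression table. MMPs are zinc-dependent proteinases that are made as inactive precursors and cut collagens, elastin and other proteins of the extracellular matrix. TIMPs bind the active site of these enzymes and block it, so the balance between both families sets how fast matrix is turned over. Mmp14, which is anchored in the plasma membrane, also activates the precursor of the Mmp2 protein at the cell surface with Timp2 as an adaptor. In an infarcted heart these enzymes and inhibitors take part in clearing dead muscle and in building the scar.

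RNA was measured in 64 libraries of CD1 mouse hearts, 4 for each of 16 groups, which combine 4 cell populations with 4 kinds of heart. The hearts were adult infarcted (P56 MI), adult sham-operated (P56 sham), neonatal infarcted (P1 MI) and neonatal sham-operated (P1 sham), named by the postnatal day of surgery, and all were taken 3 days later. Adult mice were males of 8 weeks, and infarction (MI) was made in them by tying off the left descending coronary artery for good. Neonates were operated on at postnatal day 1, and sham animals of both ages went through surgery without infarction. The mice carried no transgene or deletion that the labels name. Adult hearts were digested by perfusion, whereas the ventricles of 6 neonates were pooled per digest and stirred, so age cannot be told apart from the way the cells were freed or, as far as the labels go, from sex. Cardiomyocytes were the dense bottom layer of a Percoll gradient and were not sorted. The other populations were sorted by surface antigens, as fibroblasts (CD90+/CD45-/CD31-), leukocytes (CD45+) and endothelial cells (CD31+/CD45-). The labels number the replicates without saying that each came from separate animals or pools, so the p-values measure only the spread between these libraries.

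The genes lie on 8 chromosomes in the GRCm38 coordinates of the deposited table. Mmp3 (ENSMUSG00000043613, chr9:7445822-7455972, plus strand) and Mmp12 (ENSMUSG00000049723, chr9:7344381-7369499, plus strand) are neighbours on chromosome 9. Mmp2 (ENSMUSG00000031740) lies at chr8:92827328-92853417, Mmp9 (ENSMUSG00000017737) at chr2:164940780-164955850 and Mmp14 (ENSMUSG00000000957) at chr14:54431612-54441265, all on the plus strand. Chromosome 10 holds Mmp19 (ENSMUSG00000025355, chr10:128790953-128800824) and Timp3 (ENSMUSG00000020044, chr10:86300372-86349506), both on the plus strand. Timp1 (ENSMUSG00000001131) lies at chrX:20870166-20874735 on the plus strand, Timp2 (ENSMUSG00000017466) at chr11:118301069-118355740 on the minus strand and Timp4 (ENSMUSG00000030317) at chr6:115241892-115252205 on the minus strand. Timp1, Timp3 and Timp4 each sit inside a synapsin gene on the opposite strand (Syn1, Syn3 and Syn2). Mmp19 overlaps Tmem198b on the opposite strand, and Mmp12 overlaps the opposite-strand gene Mmp1b. Whether reads were counted by strand was not stated in the material used here, so some reads could belong to these partners. Their highest level in any library was 2.99 CPM for Syn1, 9.69 CPM for Syn3, 22.1 CPM for Syn2 and 26.1 CPM for Tmem198b.

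The stretches of 250 bases just before the annotated start are shown for 4 members, because Timp1 and Mmp14 rose after adult infarction in every population, Timp4 fell in some, and Mmp3 carried the most kinds of motif. Sequences are from RefSeq (GRCm38.p6), which had an entry for 7 of the 10 members in the table used; Mmp2, Mmp9 and Mmp19 had none there. They are written 5′ to 3′ on the strand of the gene, with capitals marking matches to 4 motifs searched on both strands: AP-1 (TGANTCA), PEA3/ETS (AGGAAG), the TATA box (TATAAA) and the GC box (GGGCGG). The windows are chrX:20869916-20870165 for Timp1, chr14:54431348-54431597 for Mmp14, chr9:7445572-7445821 for Mmp3 and chr6:115252206-115252455 (minus strand) for Timp4.
Timp1: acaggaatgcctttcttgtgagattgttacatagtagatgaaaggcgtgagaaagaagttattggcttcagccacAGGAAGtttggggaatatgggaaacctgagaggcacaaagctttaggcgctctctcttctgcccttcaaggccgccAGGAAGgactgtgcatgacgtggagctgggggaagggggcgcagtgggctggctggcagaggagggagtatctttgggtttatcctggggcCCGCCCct
Mmp14: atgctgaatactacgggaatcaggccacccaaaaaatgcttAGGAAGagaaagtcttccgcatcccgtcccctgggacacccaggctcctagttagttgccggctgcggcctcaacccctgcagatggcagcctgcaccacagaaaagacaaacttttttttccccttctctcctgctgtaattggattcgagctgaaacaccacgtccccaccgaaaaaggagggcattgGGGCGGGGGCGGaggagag
Mmp3: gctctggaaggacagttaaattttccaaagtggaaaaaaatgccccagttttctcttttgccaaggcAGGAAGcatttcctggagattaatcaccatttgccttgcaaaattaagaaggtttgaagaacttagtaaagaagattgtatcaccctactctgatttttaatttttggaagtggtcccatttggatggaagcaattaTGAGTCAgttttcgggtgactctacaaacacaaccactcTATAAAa
Timp4: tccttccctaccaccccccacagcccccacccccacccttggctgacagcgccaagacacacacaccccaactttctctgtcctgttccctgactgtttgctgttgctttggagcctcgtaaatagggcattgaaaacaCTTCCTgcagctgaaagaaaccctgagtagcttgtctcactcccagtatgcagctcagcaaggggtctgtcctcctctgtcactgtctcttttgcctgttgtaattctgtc
Timp1 held 2 PEA3/ETS matches, 175 to 170 and 99 to 94 bases before the start, and 1 GC box on the opposite strand. Mmp14 held 1 PEA3/ETS match and 2 GC boxes that lie end to end. Mmp3 held an AP-1 match 46 to 40 bases before the start, a PEA3/ETS match and a TATA box 7 to 2 bases before the start, whereas Timp4 held 1 PEA3/ETS match on the opposite strand. Of all 32851 promoter windows of the same length, 6.75% held an AP-1 match, 29.5% a PEA3/ETS match, 12.4% a TATA box and 32.7% a GC box. A match describes letters and is not shown to be a bound site.

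Levels are given in the authors' unit, which they named CPM. The values of a library sum to 0.777 to 2.63 M (highest in adult cardiomyocytes), so they are scaled read counts and not strictly counts per M reads. Levels of the same gene are compared in CPM, and levels of different genes in CPM per kilobase of exon. The libraries held 9.59 to 27.5 M reads each (median 20.6 M), so that a floor of 3 reads corresponds to 0.102 to 0.409 CPM; the floor covers counting error only. Markers of the labelled populations were present: summed endothelial markers averaged 9171 to 10450.0 CPM in the endothelial groups, and pan-leukocyte markers 1439 to 3614 CPM in the leukocyte groups. RNA of other cells was also present. Cardiomyocyte markers averaged 39520.0 CPM in P56 sham leukocytes, beside 38090.0 CPM in P1 sham cardiomyocytes and 160400.0 CPM in P56 sham cardiomyocytes; endothelial markers averaged 4046 CPM in P1 sham leukocytes and fibroblast markers 5115 CPM in P1 MI cardiomyocytes. Ribosomal 18S RNA made up over 5% of the reads in 7 libraries, spread over 6 groups, and 26.1% at most, in P1 sham fibroblasts replicate 4. In such bulk samples, fewer cells of a type and less RNA per cell cannot be told apart. Differences were tested with limma on log2(CPM + 0.5), and a gene counted as changed at a Benjamini-Hochberg adjusted p under 0.05 over all genes tested; each log2 difference is given ± its standard error on that scale, where changes of low genes come out too small.

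**Figure D1:**
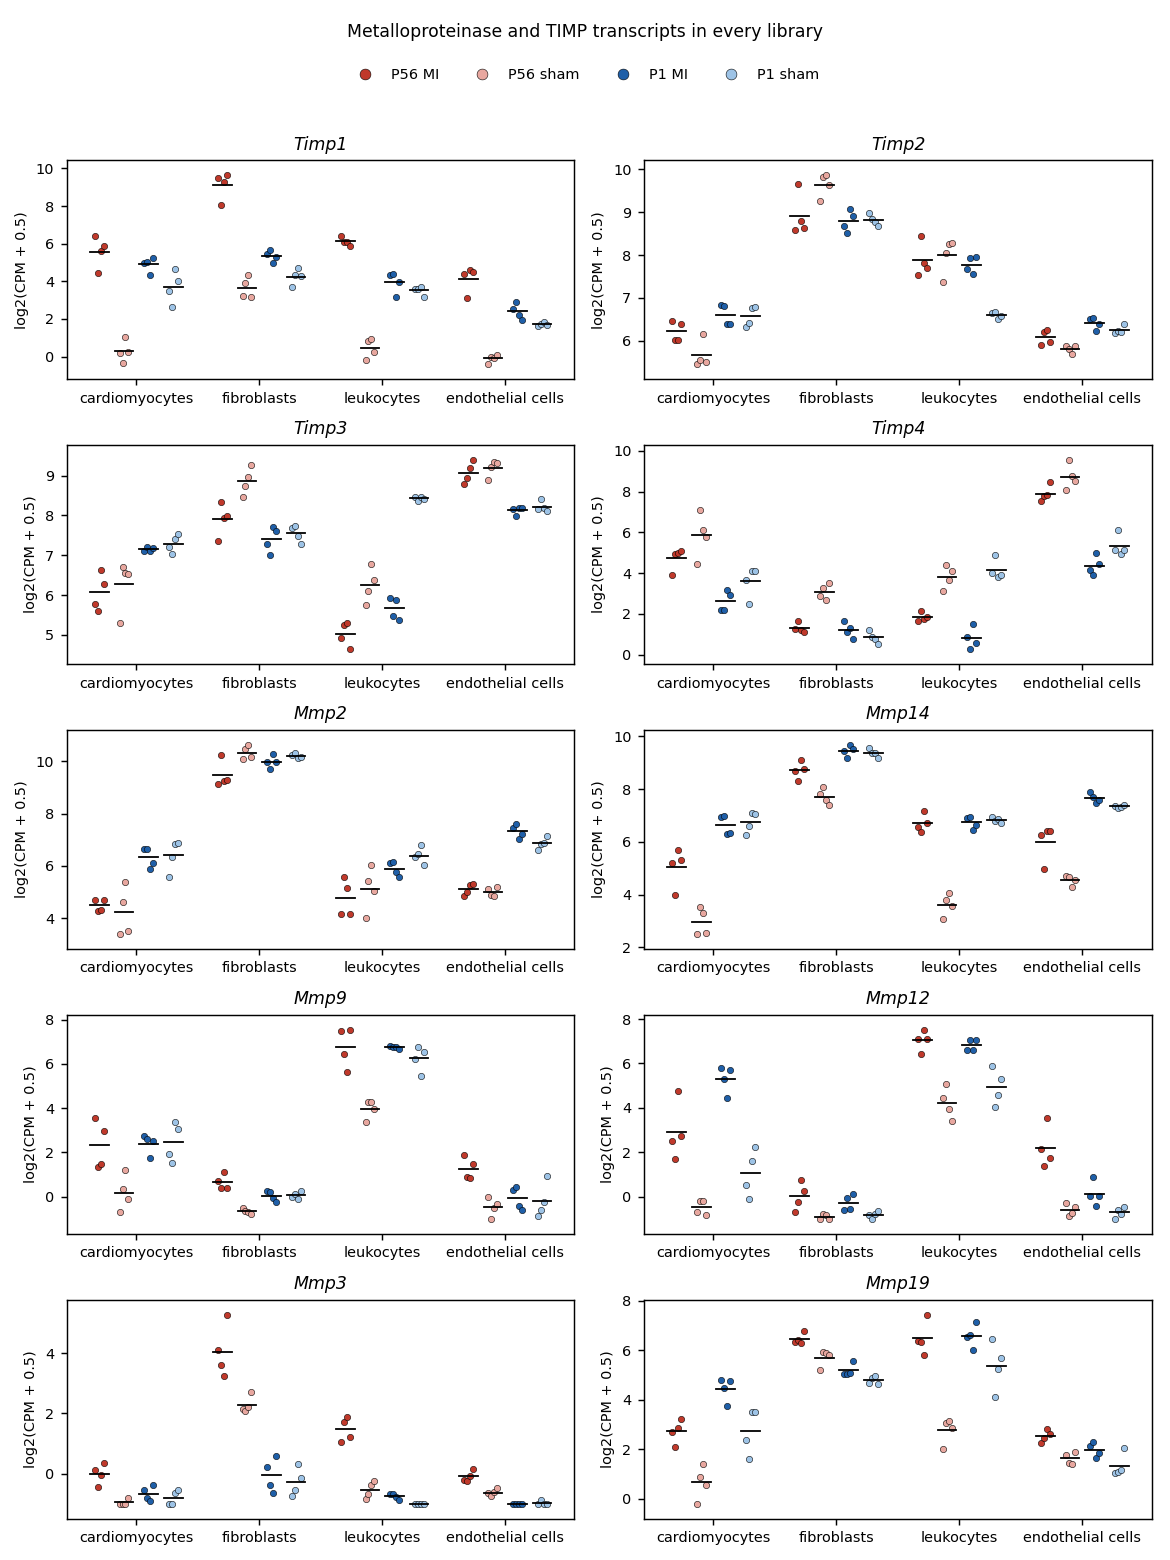
Level of each of the 10 genes in the 64 libraries, on the log2(CPM + 0.5) scale; points are libraries and lines are the mean of 4 libraries, with P56 MI, P56 sham, P1 MI and P1 sham side by side within each population. Timp1 stands at 733, 264, 612 and 792 CPM in P56 MI fibroblasts and below 1 CPM in all 4 P56 sham endothelial libraries.

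Mmp2, Timp2 and Mmp14 were highest in fibroblasts. Per kilobase, the mean level of Mmp2, gelatinase A, was 388 CPM in P56 sham fibroblasts, ahead of Timp2 (207 CPM), the matrix-bound inhibitor Timp3 (58.2 CPM), Mmp14 (35.7 CPM), Mmp19 (14.9 CPM) and Timp1 (14.7 CPM). In P1 sham fibroblasts Mmp2 was again first (354 CPM per kilobase), followed by Timp2 (116 CPM) and Mmp14 (112 CPM). Mmp2 was higher in fibroblasts than in leukocytes by 5.21 ± 0.34 (adjusted p = 1.18e-14) on the log2 scale at P56, and than in endothelial cells by 5.33 ± 0.34 (adjusted p = 1.01e-14). At P1 the same Mmp2 differences were 3.82 ± 0.34 (adjusted p = 2.15e-11) and 3.36 ± 0.34 (adjusted p = 4.74e-10). Its 4 fibroblast groups stood above the other 12 groups without overlap of libraries, and no other step in the order of its 16 group means was free of overlap.

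Among sham populations, Timp3 was highest in endothelial cells and fibroblasts at P56, and Timp4, an inhibitor known for its abundance in the heart, was highest in endothelial cells at both ages. At P1, Timp3 averaged 344 ± 10.4 CPM in sham leukocytes, 298 ± 29.5 CPM in sham endothelial cells and 189 ± 27.2 CPM in sham fibroblasts (SD, n = 4 each), and fibroblasts were below leukocytes with a log2 difference of -0.87 ± 0.22 (adjusted p = 0.000810). Timp4 averaged 453 ± 204 CPM in P56 sham endothelial cells, 70.5 ± 48.7 CPM in P56 sham cardiomyocytes, 14.4 ± 5.52 CPM in P56 sham leukocytes and 8.18 ± 2.23 CPM in P56 sham fibroblasts (SD, n = 4 each). It was lower in fibroblasts than in endothelial cells, with log2 differences of -5.65 ± 0.40 (adjusted p = 1.65e-13) at P56 and -4.49 ± 0.40 (adjusted p = 3.75e-11) at P1. Timp3 did not pass the test between P56 sham fibroblasts and endothelial cells, with a difference of -0.33 ± 0.22 (adjusted p = 0.214).

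Mmp9 (gelatinase B) and Mmp12 (macrophage elastase), both known as products of myeloid cells, were highest in leukocytes. In P56 sham leukocytes Mmp9 averaged 15.6 ± 4.18 CPM and Mmp12 19.7 ± 9.80 CPM (SD, n = 4 each), and in P56 sham fibroblasts both stayed under 0.2 CPM in every library, near or under the floor. Mmp9 was higher in leukocytes than in endothelial cells by 4.43 ± 0.38 (adjusted p = 1.10e-11) at P56 and by 6.45 ± 0.38 (adjusted p = 3.78e-15) at P1, and Mmp12 by 4.81 ± 0.37 (adjusted p = 6.93e-13) and 5.68 ± 0.37 (adjusted p = 3.20e-14). Mmp3, stromelysin, was the lowest of the 10, with 0 reads in 16 of the 64 libraries and at most 3 reads in 33; it reached 4.43 ± 1.06 CPM in P56 sham fibroblasts.

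Between pairs of sham populations at P56, 9 of the 10 genes differed between cardiomyocytes and fibroblasts (where 82.4% of all genes tested did), 8 between cardiomyocytes and leukocytes (78.4%) and 5 between cardiomyocytes and endothelial cells (82%). The count between cardiomyocytes and endothelial cells fell to 3 without P56 sham endothelial cells replicate 4. Fibroblasts and leukocytes differed in 9 (67.9%), fibroblasts and endothelial cells in 7 (52.9%), and leukocytes and endothelial cells in 7 (65.4%). At P1 the counts were 8 between cardiomyocytes and fibroblasts (69.1%), 4 between cardiomyocytes and leukocytes (66.4%) and 7 between cardiomyocytes and endothelial cells (71.2%). They were 9 between fibroblasts and leukocytes (63.9%), 8 between fibroblasts and endothelial cells (55.4%) and 6 between leukocytes and endothelial cells (52.6%). The counts of members therefore ran from 4 to 9 of 10, beside 52.6% to 82.4% of all genes. The median of all genes was itself shifted by -0.18, -0.11 and -0.23 on the log2 scale in the P56 comparisons of cardiomyocytes with fibroblasts, leukocytes and endothelial cells.

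Over all 16 groups, the highest mean lay in P56 sham fibroblasts for Mmp2 (1309 CPM) and Timp2 (808 CPM), in P1 MI fibroblasts for Mmp14 (703 CPM), and in P56 MI fibroblasts for Timp1 (600.2 CPM) and Mmp3 (18.7 CPM). It lay in P56 MI leukocytes for Mmp12 (135.5 CPM) and Mmp9 (125 CPM), in P1 MI leukocytes for Mmp19 (98.3 CPM), and in P56 sham endothelial cells for Timp3 (587 CPM) and Timp4 (453 CPM). P56 sham cardiomyocytes were lowest for Mmp2 (21.6 CPM), Timp2 (51.3 CPM), Mmp14 (7.73 CPM) and Mmp19 (1.21 CPM), and P1 sham fibroblasts for Timp4 (1.33 CPM). Most neighbours in these orders did not differ beyond their spread: of 15 neighbouring pairs of groups, the libraries overlapped in 10 for Mmp14, 11 for Timp1, 12 for Mmp3, Mmp19, Timp2, Timp3 and Timp4, 13 for Mmp9 and 14 for Mmp2 and Mmp12. For Timp1, P56 MI fibroblasts stood clear of P56 MI leukocytes, the next group. For Mmp12, the step free of overlap lay between P1 MI leukocytes and P1 MI cardiomyocytes.

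In sham hearts the adult level differed from the neonatal one for most members, in directions that depended on the population. In cardiomyocytes all 9 genes tested changed, 8 of them lower at P56 and Timp4 higher, where 70.4% of all genes tested changed (Mmp3 was too low to test). Fibroblasts had 6 of 8 changed against 67% of all genes, with Mmp3, Mmp19, Timp2, Timp3 and Timp4 higher and Mmp14 lower at P56 (Mmp9 and Mmp12 were too low to test). Leukocytes had 8 of 10 changed against 67.1%, with Timp2 and Mmp3 higher and Mmp2, Mmp9, Mmp14, Mmp19, Timp1 and Timp3 lower. Endothelial cells had 6 of 9 changed against 62.9%, with Timp3 and Timp4 higher and Mmp2, Mmp14, Timp1 and Timp2 lower (Mmp3 was too low to test). Most genes changed with age in each population, so the counts of members other than in cardiomyocytes lay near the background.

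**Figure D2:**
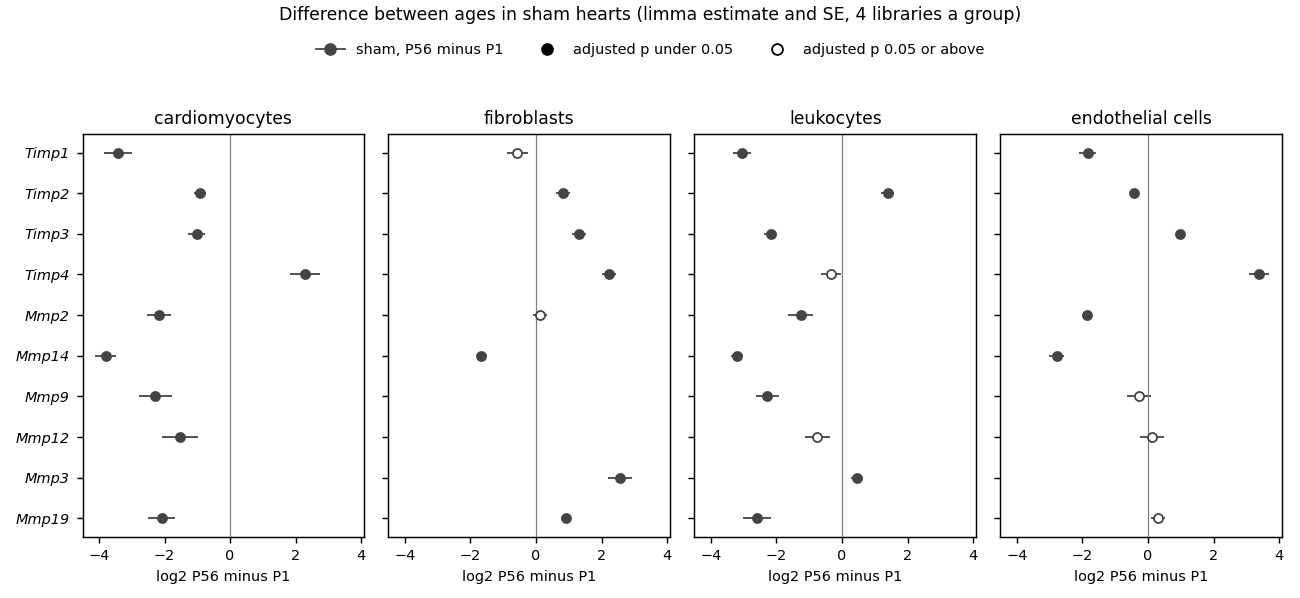
Difference between P56 sham and P1 sham for each gene, as the limma log2 estimate (P56 minus P1) with its standard error, 4 libraries a group; filled points passed an adjusted p of 0.05. Mmp14 lies left of 0 in all 4 populations, and Timp4 right of 0 in cardiomyocytes, fibroblasts and endothelial cells.

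Mmp14 was lower at P56 than at P1 in all 4 populations. It had 25.9, 25.2, 18.9 and 22.9 CPM in P56 sham endothelial cells, against 164, 157, 161 and 168 CPM in P1 sham endothelial cells. Fibroblasts had 222, 268, 193 and 168 CPM in P56 sham hearts, against 761, 668, 667 and 583 CPM in P1 sham hearts. Every adult library was below every neonatal one in all 4 populations. The log2 differences were -3.79 ± 0.32 (adjusted p = 7.56e-09) in cardiomyocytes, -1.67 ± 0.17 (adjusted p = 2.30e-07) in fibroblasts, -3.20 ± 0.19 (adjusted p = 1.15e-09) in leukocytes and -2.79 ± 0.23 (adjusted p = 2.40e-08) in endothelial cells. Among cardiomyocytes, adult sham libraries also held less fibroblast RNA: summed fibroblast markers were 366 to 1102 CPM in P56 sham and 2516 to 6351 CPM in P1 sham cardiomyocytes, and 8 of 10 of them were lower at P56. In leukocytes, summed endothelial markers were 392.2 to 572 CPM in P56 sham and 3732 to 4400.0 CPM in P1 sham libraries, with 10 of 10 lower. The part of these admixed cells in the age differences of cardiomyocytes and leukocytes was not tested.

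Timp4 showed the reverse pattern in endothelial cells. It had 271, 741, 437 and 364 CPM in P56 sham endothelial cells, against 35.1, 67.9, 30.2 and 34.8 CPM in P1 sham endothelial cells. No adult library overlapped a neonatal one, and the difference was 3.39 ± 0.30 (adjusted p = 6.42e-08), a fitted 10.5-fold. Timp4 was also higher at P56 by 2.28 ± 0.45 (adjusted p = 0.000198) in cardiomyocytes and by 2.23 ± 0.22 (adjusted p = 1.30e-07) in fibroblasts, while leukocytes gave -0.34 ± 0.30 (adjusted p = 0.320). Mmp2 was lower at P56 in endothelial cells (31.8 ± 4.00 CPM at P56 and 117 ± 18 CPM at P1), whereas fibroblasts did not pass the test (1309 ± 233 CPM at P56 and 1192 ± 61.9 CPM at P1, SD, n = 4 each; log2 difference 0.12 ± 0.21, adjusted p = 0.631). The call for Mmp12 in cardiomyocytes, -1.53 ± 0.54 (adjusted p = 0.0164), was lost without P1 sham cardiomyocytes replicate 4 (adjusted p = 0.0736). The call for Mmp3 in leukocytes rested on levels of at most 0.345 CPM at P56 and 0 reads at P1, and leaving out any of 6 libraries (P56 sham leukocytes replicates 3 and 4, and P1 sham leukocytes replicates 1 to 4) removed it (highest adjusted p = 0.120).

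Timp2, which both inhibits Mmp14 and links it to the Mmp2 precursor, went opposite ways with age. It had 165, 263, 308 and 312 CPM in P56 sham leukocytes, against 99.5, 102, 90.9 and 94.6 CPM in P1 sham leukocytes. All adult leukocyte libraries were above all neonatal ones, by 1.39 ± 0.20 (adjusted p = 1.52e-05). It was also higher at P56 in fibroblasts, by 0.82 ± 0.20 (adjusted p = 0.00208), and lower in cardiomyocytes (-0.91 ± 0.19, adjusted p = 0.000307) and endothelial cells (-0.44 ± 0.090, adjusted p = 0.000454). Timp1 was lower at P56 in cardiomyocytes (-3.42 ± 0.42, adjusted p = 7.89e-07), leukocytes (-3.06 ± 0.27, adjusted p = 6.27e-08) and endothelial cells (-1.83 ± 0.26, adjusted p = 1.38e-05). In fibroblasts the Timp1 difference was -0.58 ± 0.32 (adjusted p = 0.121) and passed the test without P56 MI fibroblasts replicate 2 (adjusted p = 0.0492) or P56 sham fibroblasts replicate 3 (adjusted p = 0.0395). Timp3 was higher at P56 in endothelial cells, with 587 ± 78.4 CPM at P56 and 298 ± 29.5 CPM at P1, and in fibroblasts, with 474 ± 109.5 CPM and 189 ± 27.2 CPM (SD, n = 4 each). It was lower at P56 in leukocytes, with a difference of -2.18 ± 0.19 (adjusted p = 7.58e-08). Markers of other cells moved with these age differences: 10 of 10 cardiomyocyte markers and 9 of 10 mural cell markers were higher at P56 in endothelial cells, and 9 of 10 cardiomyocyte and 8 of 10 endothelial markers in fibroblasts. Summed cardiomyocyte markers were 3501 to 7773 CPM in P56 sham and 313 to 1060.0 CPM in P1 sham endothelial cells, and their part in the result was not tested. In leukocytes 9 of 10 cardiomyocyte markers were higher at P56 (sums of 26120.0 to 68680.0 CPM in P56 sham and 8155 to 11090.0 CPM in P1 sham) and 8 of 10 macrophage markers higher with 1 lower (5422 to 10590.0 CPM and 3002 to 3848 CPM). All 9 neutrophil markers tested there were lower (28.3 to 83.3 CPM in P56 sham and 1566 to 3143 CPM in P1 sham), and the part of these cells in the leukocyte age differences was not tested. Mmp12 in leukocytes, -0.75 ± 0.37 (adjusted p = 0.0830), passed without P56 sham replicate 2 (adjusted p = 0.0215) or P1 sham replicate 2 (adjusted p = 0.0170), and Mmp19 in endothelial cells, 0.30 ± 0.22 (adjusted p = 0.240), without P1 sham replicate 4 (adjusted p = 0.0149).

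Infarction changed many of these genes in adult hearts and few in neonatal ones outside leukocytes. At P56, 5 of 9 genes tested changed in cardiomyocytes, all higher (Timp1, Mmp9, Mmp12, Mmp14 and Mmp19), where 9.69% of all genes tested changed. All 8 tested changed in fibroblasts, 4 higher (Timp1, Mmp3, Mmp14 and Mmp19) and 4 lower (Mmp2, Timp2, Timp3 and Timp4), against 50% of all genes. Leukocytes had 8 of 10 changed, 6 higher (Timp1, Mmp3, Mmp9, Mmp12, Mmp14 and Mmp19) and 2 lower (Timp3 and Timp4), against 59.5%. Endothelial cells had 6 of 9 higher (Timp1, Timp2, Mmp9, Mmp12, Mmp14 and Mmp19), against 20.4%. The median log2 change over the members tested was 2.06 (cardiomyocytes), 0.013 (fibroblasts), 2.41 (leukocytes) and 0.89 (endothelial cells), beside 0.084, -0.031, 0.025 and 0.016 over all genes tested.

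At P1, Mmp12 was the 1 gene of 9 that passed the test in cardiomyocytes, where it rose and 0.343% of all genes tested changed. At an unadjusted p under 0.05, 4 genes would have passed there. Leukocytes had 5 of 10 changed, with Mmp12, Mmp19 and Timp2 higher and Timp3 and Timp4 lower, against 45.2%. In fibroblasts 0 of 8 and in endothelial cells 0 of 9 passed in limma, against 2.37% and 0.216% of all genes. At an unadjusted p under 0.05, 2 genes in fibroblasts and 5 in endothelial cells would have passed. On recovered reads edgeR called 0 in both, and DESeq2 called 1 in each, Timp1 in fibroblasts and Mmp12 in endothelial cells. The difference between the adult and the neonatal response, tested as an interaction, passed for 8 genes in leukocytes (beside 45.2% of all genes), 5 in fibroblasts (31.7%), 2 in cardiomyocytes (1.75%) and 2 in endothelial cells (5.41%).

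**Figure D3:**
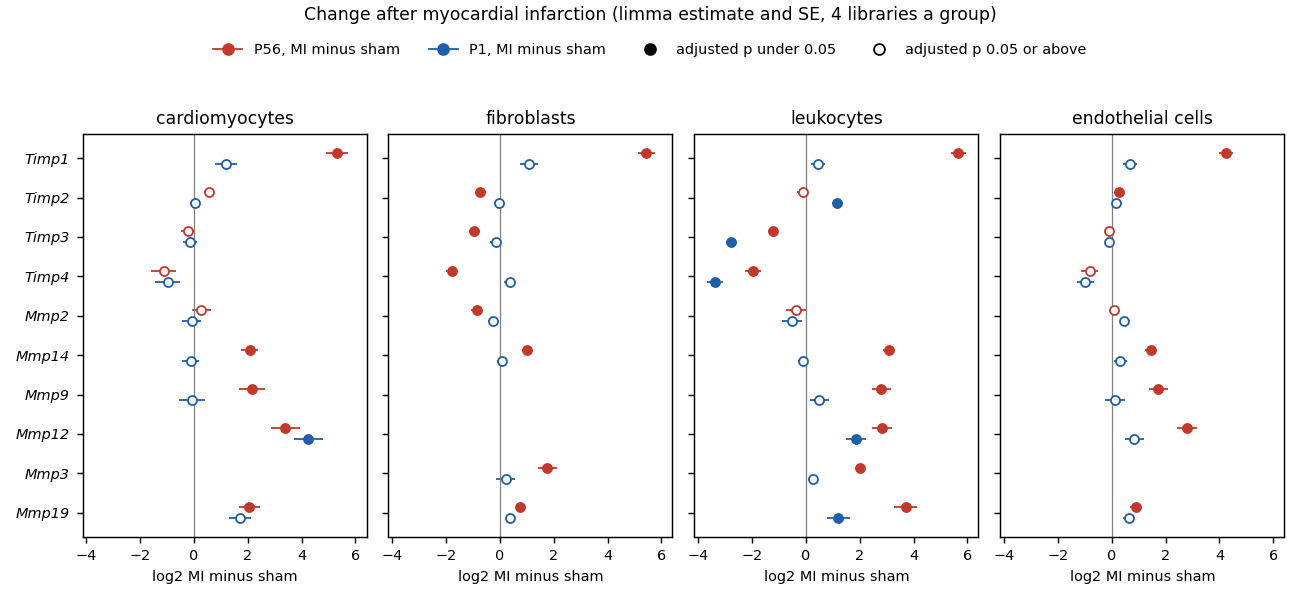
Response to infarction of each gene in each population, as the limma log2 estimate (MI minus sham) with its standard error, 4 libraries a group; P56 is drawn above P1 and filled points passed an adjusted p of 0.05. The adult Timp1 estimates lie between 4.25 and 5.67, and no neonatal Timp1 estimate is filled.

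Timp1, a secreted inhibitor that tissues induce during injury and inflammation, had the largest adult rise among the members tested in each population. In fibroblasts it had 733, 264, 612 and 792 CPM in P56 MI hearts, against 8.66, 14.8, 20.0 and 8.61 CPM in P56 sham hearts. In leukocytes it had 85.7, 67.6, 68.1 and 58.5 CPM in P56 MI hearts, against 0.391, 1.26, 1.42 and 0.689 CPM in P56 sham hearts. Every infarcted library was above every sham library, and P56 MI fibroblasts replicate 2 was the lowest of its group. Cardiomyocytes had 84.7, 21.3, 47.8 and 58.4 CPM in P56 MI hearts, against 0.621, 0.283, 1.55 and 0.701 CPM in P56 sham hearts. Endothelial cells had 20.6, 8.16, 23.5 and 21.7 CPM in P56 MI hearts, against 0.264, 0.478, 0.453 and 0.556 CPM in P56 sham hearts. The groups did not overlap there either. The log2 rises were 5.44 ± 0.32 (adjusted p = 5.99e-09) in fibroblasts, 5.67 ± 0.27 (adjusted p = 7.43e-10) in leukocytes, 5.31 ± 0.42 (adjusted p = 4.50e-07) in cardiomyocytes and 4.25 ± 0.26 (adjusted p = 5.28e-08) in endothelial cells, fitted folds of 43.5, 50.8, 39.6 and 19.

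The neonatal Timp1 response did not pass the test in any population. Fibroblasts had 43.3, 50.0, 30.5 and 38 CPM in P1 MI hearts, against 12.6, 19.4, 25.6 and 18.7 CPM in P1 sham hearts, and endothelial cells had 5.21, 6.94, 4.19 and 3.35 CPM, against 2.61, 2.83, 3.10 and 2.75 CPM. In both, all infarcted libraries were above all sham libraries, while in cardiomyocytes (30.1 ± 7.60 CPM in P1 MI and 14.3 ± 8.25 CPM in P1 sham) and leukocytes (16 ± 5.53 CPM and 11 ± 1.69 CPM; SD, n = 4 each) the groups overlapped. The log2 differences were 1.09 ± 0.32 (adjusted p = 0.0969) in fibroblasts, 0.66 ± 0.26 (adjusted p = 0.265) in endothelial cells, 1.20 ± 0.42 (adjusted p = 0.243) in cardiomyocytes and 0.45 ± 0.27 (adjusted p = 0.180) in leukocytes. The fibroblast value passed without P56 MI fibroblasts replicate 2 (adjusted p = 0.0242), and the leukocyte value without P1 MI leukocytes replicate 3 (adjusted p = 0.0209). The adult response exceeded the neonatal one by 5.22 ± 0.38 (adjusted p = 2.66e-07) in leukocytes, 4.36 ± 0.46 (adjusted p = 6.59e-06) in fibroblasts, 4.11 ± 0.59 (adjusted p = 0.00221) in cardiomyocytes and 3.58 ± 0.37 (adjusted p = 0.000130) in endothelial cells.

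Some fibroblast markers were higher in the other populations after adult infarction, where Timp1 and Mmp14 rose, although most did not pass the test in that direction. Summed fibroblast markers were 1551 to 3367 CPM in P56 MI and 366 to 1102 CPM in P56 sham cardiomyocytes, with 3 of 10 markers higher (median log2 difference of the list 0.30). In leukocytes they were 2261 to 7143 CPM in P56 MI and 546 to 1690.0 CPM in P56 sham hearts, with 3 of 10 higher and 2 lower (median 0.16). Endothelial cells had 1384 to 3008 CPM in P56 MI and 954 to 1226 CPM in P56 sham hearts, with 3 of 10 higher and 1 lower (median -0.22). None of the 10 markers was at 0 reads in a whole group. Epicardial and mesothelial markers also rose at P56, with 6 of 7 tested in fibroblasts and 4 of 7 in each other population. The part of fibroblast and epicardial RNA in the rises of Timp1 and Mmp14 was not tested.

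Timp3, the inhibitor that stays bound to the matrix, fell in leukocytes after infarction at both ages. It had 30.1, 37.2, 39.1 and 24.6 CPM in P56 MI leukocytes, against 53.7, 68, 109 and 82.6 CPM in P56 sham leukocytes. At P1 it had 60.8, 43.6, 58.5 and 40.9 CPM in P1 MI leukocytes, against 352, 330.3, 352 and 342 CPM in P1 sham leukocytes. The groups did not overlap at either age, and the log2 differences were -1.22 ± 0.19 (adjusted p = 5.82e-05) at P56 and -2.76 ± 0.19 (adjusted p = 4.39e-08) at P1. The fall was smaller at P56, by 1.55 ± 0.27 (adjusted p = 0.000357). In fibroblasts Timp3 had 164, 325, 242 and 255 CPM in P56 MI hearts, against 354, 430.3, 498 and 612 CPM in P56 sham hearts. No infarcted library reached a sham one, and the difference was -0.95 ± 0.20 (adjusted p = 0.00115). At P1 fibroblasts averaged 172 ± 36.6 CPM in MI and 189 ± 27.2 CPM in sham hearts (SD, n = 4 each; log2 difference -0.15 ± 0.20, adjusted p = 0.824). The interaction in fibroblasts, -0.80 ± 0.29 (adjusted p = 0.0447), stayed under 0.05 only when P56 MI replicate 2, P56 sham replicate 1, P1 MI replicate 2 or P1 sham replicate 2 was left out, and was lost without any of the other 12 libraries (adjusted p up to 0.0975). Endothelial cells had 547 ± 100.6 CPM in P56 MI and 587 ± 78.4 CPM in P56 sham hearts (SD, n = 4 each; log2 difference -0.11 ± 0.12, adjusted p = 0.570), and cardiomyocytes -0.20 ± 0.26 (adjusted p = 0.692) on the log2 scale.

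Timp4 fell in the same populations as Timp3. It had 2.66, 3.96, 2.88 and 3.07 CPM in P56 MI leukocytes, against 8.16, 20.8, 12 and 16.7 CPM in P56 sham leukocytes, and 1.33, 0.717, 2.33 and 0.990 CPM in P1 MI leukocytes, against 15.8, 29.1, 13.7 and 14.6 CPM in P1 sham leukocytes. In fibroblasts it had 1.87, 2.64, 1.77 and 1.63 CPM in P56 MI hearts, against 6.85, 9.04, 5.93 and 10.9 CPM in P56 sham hearts. None of these pairs of groups overlapped. The differences were -1.97 ± 0.30 (adjusted p = 4.10e-05) and -3.36 ± 0.30 (adjusted p = 4.18e-07) in leukocytes at P56 and P1, and -1.79 ± 0.22 (adjusted p = 5.75e-06) in fibroblasts at P56. P1 fibroblasts averaged 1.87 ± 0.589 CPM in MI and 1.33 ± 0.371 CPM in sham hearts (SD, n = 4 each), and the responses of the 2 ages differed by -2.15 ± 0.30 (adjusted p = 9.40e-05); in leukocytes they differed by 1.39 ± 0.42 (adjusted p = 0.0140). In endothelial cells Timp4 had 188, 218, 226 and 354 CPM in P56 MI hearts, against 271, 741, 437 and 364 CPM in P56 sham hearts, groups that overlapped. That difference was -0.82 ± 0.30 (adjusted p = 0.0663) and passed without P56 MI replicate 4 (adjusted p = 0.0408), P56 sham replicate 1 (adjusted p = 0.0290) or P1 sham replicate 2 (adjusted p = 0.0454). In cardiomyocytes it was -1.12 ± 0.45 (adjusted p = 0.130) and passed without P56 sham cardiomyocytes replicate 1 (adjusted p = 0.0240).

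Endothelial, mural and cardiomyocyte RNA moved with the falls of Timp3 and Timp4 in sorted leukocytes. Summed endothelial markers were 141 to 232 CPM in P56 MI and 392.2 to 572 CPM in P56 sham leukocytes, and 440.4 to 785 CPM in P1 MI and 3732 to 4400.0 CPM in P1 sham leukocytes. Summed cardiomyocyte markers were 1867 to 6577 CPM in P56 MI and 26120.0 to 68680.0 CPM in P56 sham leukocytes. All 10 genes of either list fell at both ages, and none was at 0 reads in a whole group. Mural cell markers fell too, 8 of 10 at each age, with sums of 124 to 273 CPM in P56 MI and 766 to 1247 CPM in P56 sham leukocytes and 325 to 632 CPM in P1 MI and 1868 to 2324 CPM in P1 sham leukocytes. In fibroblasts, cardiomyocyte markers were 102 to 400.4 CPM in P56 MI and 1083 to 2004 CPM in P56 sham hearts, with 10 of 10 lower, and endothelial markers 229 to 494 CPM and 461 to 665 CPM, with 1 of 10 higher and 1 lower. The part of these cells in the falls of Timp3 and Timp4 was not tested.

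Timp2 changed in neonatal leukocytes and in adult fibroblasts and endothelial cells. In leukocytes it had 204, 242, 187 and 248 CPM in P1 MI hearts, against 99.5, 102, 90.9 and 94.6 CPM in P1 sham hearts, without overlap. It rose by 1.17 ± 0.20 (adjusted p = 0.000196) there, whereas P56 leukocytes averaged 241 ± 72 CPM in MI and 262 ± 68.5 CPM in sham hearts (SD, n = 4 each; -0.12 ± 0.20, adjusted p = 0.635), and the responses differed by -1.29 ± 0.28 (adjusted p = 0.00183). Beside the neonatal rise, 10 of 10 macrophage markers were higher (sums of 9276 to 10980.0 CPM in P1 MI and 3002 to 3848 CPM in P1 sham leukocytes). Of the pan-leukocyte markers 8 of 8 were higher (3322 to 3945 CPM in P1 MI and 1114 to 1645 CPM in P1 sham), and of the endothelial markers 10 of 10 were lower; their part in the result was not tested. In fibroblasts it had 383, 813, 442 and 395 CPM in P56 MI hearts, against 616, 899, 928 and 789 CPM in P56 sham hearts. The groups overlapped through P56 MI replicate 2, at 812.5 CPM, and the difference of -0.72 ± 0.20 (adjusted p = 0.00769) was -0.97 (adjusted p = 6.09e-05) without that library. The interaction in fibroblasts, -0.69 ± 0.29 (adjusted p = 0.0770), passed without P56 MI replicate 2 (adjusted p = 0.00201) or P56 sham replicate 1 (adjusted p = 0.0438). In endothelial cells the P56 difference of 0.27 ± 0.090 (adjusted p = 0.0447) was lost when any of 10 libraries was left out (adjusted p up to 0.136) and kept without P56 MI replicates 1 and 4, P1 MI replicates 1, 2 and 3 and P1 sham replicate 4. In cardiomyocytes it was 0.56 ± 0.19 (adjusted p = 0.0700) and passed without P56 MI replicate 3 (adjusted p = 0.0242) or P56 sham replicate 3 (adjusted p = 0.0160).

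Mmp14, the membrane-type enzyme, rose after adult infarction in all 4 populations. It had 93.5, 82.1, 143 and 104 CPM in P56 MI leukocytes, against 7.94, 13.2, 16.4 and 11.3 CPM in P56 sham leukocytes. Fibroblasts had 416, 316, 553 and 439 CPM in P56 MI hearts, against 222, 268, 193 and 168 CPM in P56 sham hearts. All infarcted libraries were above all sham libraries in both populations. Cardiomyocytes had 36.1, 15.3, 50.6 and 39.1 CPM in P56 MI hearts, against 5.21, 11.1, 9.30 and 5.26 CPM in P56 sham hearts. Endothelial cells had 76.7, 30.7, 84 and 84.9 CPM in P56 MI hearts, against 25.9, 25.2, 18.9 and 22.9 CPM in P56 sham hearts. Here too no libraries overlapped, although endothelial replicate 2 of the infarcted hearts was close to the sham range. The rises were 3.07 ± 0.19 (adjusted p = 1.25e-08) in leukocytes, 2.07 ± 0.32 (adjusted p = 0.000337) in cardiomyocytes, 1.46 ± 0.23 (adjusted p = 0.000410) in endothelial cells and 1.01 ± 0.17 (adjusted p = 0.000138) in fibroblasts. Outside fibroblasts, summed fibroblast markers averaged 2539 CPM in P56 MI and 639 CPM in P56 sham cardiomyocytes, 4654 and 1123 CPM in leukocytes, and 2044 and 1097 CPM in endothelial cells.

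The neonatal Mmp14 response did not pass the test in any population. Leukocytes had 118, 123, 86.9 and 100.4 CPM in P1 MI hearts, against 122, 109, 116 and 106 CPM in P1 sham hearts, and the groups overlapped. Fibroblasts averaged 703 ± 96.8 CPM in P1 MI and 669.5 ± 72.9 CPM in P1 sham hearts, cardiomyocytes 101.5 ± 26.5 CPM and 111 ± 28.1 CPM, and endothelial cells 204 ± 25.5 CPM and 162 ± 4.59 CPM (SD, n = 4 each). Of these, endothelial cells had no overlap between infarcted and sham libraries. The log2 differences at P1 were -0.091 ± 0.19 (adjusted p = 0.726) in leukocytes, 0.067 ± 0.17 (adjusted p = 0.924) in fibroblasts, -0.12 ± 0.32 (adjusted p = 0.929) in cardiomyocytes and 0.32 ± 0.23 (adjusted p = 0.562) in endothelial cells. The adult response was larger by 3.16 ± 0.27 (adjusted p = 8.31e-07) in leukocytes, 2.20 ± 0.45 (adjusted p = 0.0161) in cardiomyocytes and 0.94 ± 0.24 (adjusted p = 0.00732) in fibroblasts. Leukocytes averaged 106 ± 26.4 CPM in P56 MI and 12.2 ± 3.54 CPM in P56 sham hearts, beside 113 ± 7.28 CPM in P1 sham hearts (SD, n = 4 each). Endothelial markers fell in P1 MI leukocytes, as given above, and the part of endothelial RNA in their Mmp14 response was not tested. In endothelial cells the interaction was 1.13 ± 0.33 (adjusted p = 0.0519), and without P56 MI endothelial cells replicate 2 it was 1.48 (adjusted p = 2.53e-05). The cardiomyocyte interaction was 2.09 (adjusted p = 0.0513) without the libraries with over 5% 18S RNA.

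Mmp2 fell in adult fibroblasts. It had 567, 1226, 601 and 623 CPM in P56 MI fibroblasts, against 1085, 1441, 1568 and 1140.4 CPM in P56 sham fibroblasts. P56 MI replicate 2 lay within the sham range and the other infarcted libraries were below it. The difference was -0.86 ± 0.21 (adjusted p = 0.00296), and -1.12 (adjusted p = 1.47e-05) without that library. At P1 fibroblasts averaged 1018 ± 169.7 CPM in MI and 1192 ± 61.9 CPM in sham hearts, groups that overlapped (SD, n = 4 each; log2 difference -0.24 ± 0.21, adjusted p = 0.682). The interaction was -0.61 ± 0.30 (adjusted p = 0.123), and -0.87 (adjusted p = 0.00323) without the same library. In the other populations Mmp2 did not pass the test after infarction at either age: at P56 the differences were 0.28 ± 0.36 in cardiomyocytes, -0.37 ± 0.37 in leukocytes and 0.10 ± 0.14 in endothelial cells (adjusted p = 0.693, 0.396 and 0.654). Endothelial cells averaged 162 ± 29.1 CPM in P1 MI and 117 ± 18 CPM in P1 sham hearts (SD, n = 4 each; 0.46 ± 0.14, adjusted p = 0.154).

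Mmp9 rose in adult leukocytes, cardiomyocytes and endothelial cells. It had 179.6, 87, 49.8 and 183 CPM in P56 MI leukocytes, against 9.95, 18.7, 18.9 and 15 CPM in P56 sham leukocytes. At P1 it had 110.2, 109, 109 and 103 CPM in MI leukocytes, against 75, 108, 43.5 and 92.8 CPM in sham leukocytes. The adult groups did not overlap and the neonatal ones did. The leukocyte differences were 2.81 ± 0.35 (adjusted p = 7.23e-06) at P56 and 0.51 ± 0.35 (adjusted p = 0.257) at P1, and the interaction was 2.30 ± 0.50 (adjusted p = 0.00174). Cardiomyocytes averaged 5.73 ± 4.41 CPM in P56 MI and 0.772 ± 0.725 CPM in P56 sham hearts (2.16 ± 0.50, adjusted p = 0.00828), and 4.92 ± 1.42 CPM in P1 MI and 5.80 ± 3.53 CPM in P1 sham hearts (SD, n = 4 each; -0.072 ± 0.50, adjusted p = 0.972). The cardiomyocyte interaction of 2.23 ± 0.70 (adjusted p = 0.116) passed without P56 MI replicate 2 (adjusted p = 0.0411) or P56 MI replicate 3 (adjusted p = 0.0252). Endothelial cells averaged 2.02 ± 0.897 CPM in P56 MI and 0.246 ± 0.202 CPM in P56 sham hearts (SD, n = 4 each), a rise of 1.74 ± 0.36 (adjusted p = 0.00306); their interaction of 1.61 ± 0.51 (adjusted p = 0.0774) passed without P56 MI replicate 2 (adjusted p = 0.0471). Neutrophil markers, summed, were 156 to 651 CPM in P56 MI and 28.3 to 83.3 CPM in P56 sham leukocytes, with 5 of 9 higher. At P1 they were 2081 to 3004 CPM in MI and 1566 to 3143 CPM in sham leukocytes, with 1 of 9 higher. Outside the leukocyte sort, pan-leukocyte markers summed to 78.6 to 223 CPM in P56 MI and 10.9 to 61.9 CPM in P56 sham cardiomyocytes, with 8 of 8 higher. In endothelial cells they summed to 41.5 to 101.0 CPM in P56 MI and 11.4 to 16.1 CPM in P56 sham hearts, with 6 of 7 higher. The part of neutrophils and other leukocytes in the rises of Mmp9 was not tested.

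Mmp12 rose after infarction at both ages in leukocytes and cardiomyocytes. It had 138, 86, 180.0 and 137 CPM in P56 MI leukocytes, against 21.2, 32.7, 15 and 10.0 CPM in P56 sham leukocytes. At P1 it had 97, 132, 97.8 and 133 CPM in MI leukocytes, against 59, 16, 23.7 and 39.2 CPM in sham leukocytes. No infarcted library overlapped a sham one at either age, and the rises were 2.83 ± 0.37 (adjusted p = 9.87e-06) at P56 and 1.88 ± 0.37 (adjusted p = 0.000664) at P1. They differed by 0.95 ± 0.52 (adjusted p = 0.148), which passed without P1 sham leukocytes replicate 2 (adjusted p = 0.0475). In cardiomyocytes it had 5.12, 2.74, 26.8 and 6.07 CPM in P56 MI hearts, against 0.124, 0.377, 0.358 and 0.0701 CPM in P56 sham hearts. Neonatal cardiomyocytes had 55.5, 38.7, 21.2 and 51.2 CPM in P1 MI hearts, against 0.921, 0.423, 2.52 and 4.24 CPM in P1 sham hearts. Again no libraries overlapped, with rises of 3.39 ± 0.54 (adjusted p = 0.000396) at P56 and 4.25 ± 0.54 (adjusted p = 0.00347) at P1 and an interaction of -0.86 ± 0.76 (adjusted p = 0.584). The adult rise was 2.78 without P56 MI cardiomyocytes replicate 3, the highest library.

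In endothelial cells Mmp12 had 3.94, 2.08, 11.1 and 2.82 CPM in P56 MI hearts, against 0.308, 0.0478, 0.101 and 0.214 CPM in P56 sham hearts, and rose by 2.80 ± 0.36 (adjusted p = 8.75e-05). The neonatal difference was 0.84 ± 0.36 (adjusted p = 0.308). The interaction of 1.96 ± 0.51 (adjusted p = 0.0332) was lost when any of 8 libraries was left out (P56 MI replicate 1, P56 sham replicates 2 and 3, P1 MI replicates 1, 3 and 4, and P1 sham replicates 2 and 3; adjusted p up to 0.0754). Macrophage markers also differed where Mmp12 rose. Within sorted leukocytes they summed to 8453 to 12440.0 CPM in P56 MI and 5422 to 10590.0 CPM in P56 sham hearts, with 5 of 10 higher and 4 lower, and to 9276 to 10980.0 CPM in P1 MI and 3002 to 3848 CPM in P1 sham hearts, with 10 of 10 higher. Outside that sort they were 329 to 769 CPM in P56 MI and 68.8 to 336 CPM in P56 sham cardiomyocytes, with 6 of 10 higher, and 419.9 to 806 CPM in P1 MI and 120.1 to 361 CPM in P1 sham cardiomyocytes, with 0 of 10 passing in limma and 7 at an unadjusted p under 0.05. In endothelial cells they were 133 to 318 CPM in P56 MI and 47.2 to 58.1 CPM in P56 sham hearts, with 6 of 10 higher. All 10 markers had reads in each of these groups. The part of macrophages in the rises of Mmp12 was not tested.

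Mmp19, a secreted enzyme of macrophages and stromal cells, rose after adult infarction in all 4 populations. It had 82.4, 79.4, 56.2 and 170.2 CPM in P56 MI leukocytes, against 3.58, 7.91, 8.28 and 6.77 CPM in P56 sham leukocytes. Neonatal leukocytes had 91.7, 96.8, 64.6 and 140.1 CPM in P1 MI hearts, against 87.9, 16.8, 37 and 50.9 CPM in P1 sham hearts. The adult groups were far apart, whereas the highest neonatal sham library lay within the infarcted range. The differences were 3.71 ± 0.42 (adjusted p = 2.96e-06) at P56 and 1.20 ± 0.42 (adjusted p = 0.0296) at P1, with an interaction of 2.51 ± 0.60 (adjusted p = 0.00321). The P1 call was lost without P1 MI replicate 2, P1 MI replicate 4, P1 sham replicate 2 or P1 sham replicate 3 (adjusted p up to 0.111). Fibroblasts had 81.2, 84.8, 77 and 109 CPM in P56 MI hearts, against 36.1, 59.9, 59.5 and 55.2 CPM in P56 sham hearts, and did not overlap. The adult rises in the other populations were 0.75 ± 0.16 (adjusted p = 0.00131) in fibroblasts, 2.06 ± 0.41 (adjusted p = 0.00248) in cardiomyocytes and 0.89 ± 0.22 (adjusted p = 0.00862) in endothelial cells. At P1 they were 0.40 ± 0.16 (adjusted p = 0.260), 1.70 ± 0.41 (adjusted p = 0.0765) and 0.65 ± 0.22 (adjusted p = 0.190), and the endothelial value passed without P1 sham endothelial cells replicate 4 (adjusted p = 0.0242). Infarcted and sham libraries did not overlap in P1 fibroblasts and cardiomyocytes, and overlapped in P1 endothelial cells. Cardiomyocytes averaged 22.1 ± 6.65 CPM in P1 MI and 7.22 ± 4.24 CPM in P1 sham hearts (SD, n = 4 each). No interaction passed outside leukocytes. Summed fibroblast markers averaged 2539 CPM in P56 MI and 638.5 CPM in P56 sham cardiomyocytes, and 2044 and 1097 CPM in endothelial cells. Pan-leukocyte markers were also higher in both populations after adult infarction, as given for Mmp9. The part of fibroblast and leukocyte RNA in the Mmp19 rises of these populations was not tested.

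Mmp3 rose in adult fibroblasts and leukocytes. It had 16.5, 11.6, 8.97 and 37.6 CPM in P56 MI fibroblasts, against 3.88, 3.74, 4.09 and 6.00 CPM in P56 sham fibroblasts. At P1 it had 0.676, 0.260, 0.135 and 0.987 CPM in MI fibroblasts, against 0.102, 0.181, 0.749 and 0.409 CPM in sham fibroblasts. Adult groups did not overlap, and the neonatal libraries were all under 1 CPM. The adult rise was 1.77 ± 0.37 (adjusted p = 0.000847) and the neonatal difference 0.22 ± 0.37 (adjusted p = 0.871). The interaction, 1.55 ± 0.52 (adjusted p = 0.0310), was lost when any of 9 libraries was left out (P56 MI replicates 1 and 4, P56 sham replicates 1, 2 and 3, P1 MI replicates 2 and 3, and P1 sham replicates 3 and 4; adjusted p up to 0.0687), and in edgeR and DESeq2. In leukocytes Mmp3 had 1.56, 2.80, 3.21 and 1.81 CPM in P56 MI hearts, against 0.0559, 0.118, 0.266 and 0.345 CPM in P56 sham hearts, a rise of 2.01 ± 0.18 (adjusted p = 4.84e-07). Summed fibroblast markers averaged 4654 CPM in P56 MI and 1123 CPM in P56 sham leukocytes. The part of fibroblast RNA in the leukocyte rise of Mmp3 was not tested. Neonatal leukocytes had 0.125, 0.126, 0.0880 and 0.0472 CPM in P1 MI hearts and 0 reads in all 4 P1 sham libraries, so their fitted difference depends on the pseudocount. The leukocyte interaction of 1.76 ± 0.26 (adjusted p = 8.54e-05) became -0.69 (adjusted p = 0.369) with edgeR.

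The genes below the filter had low levels and no test. Mmp9 had 1.15, 0.814, 1.66 and 0.794 CPM in P56 MI fibroblasts, against 0.194, 0.130, 0.115 and 0.0857 CPM in P56 sham fibroblasts, and Mmp12 had 0.119, 0.335, 1.16 and 0.681 CPM, against 0, 0.0870, 0.0576 and 0 CPM. Mmp3 had 0.578, 0.242, 0.475 and 0.781 CPM in P56 MI cardiomyocytes, against 0, 0, 0 and 0.0701 CPM in P56 sham cardiomyocytes, and 0.369, 0.333, 0.439 and 0.621 CPM in P56 MI endothelial cells, against 0.132, 0.0956, 0.151 and 0.214 CPM in P56 sham endothelial cells. In each of these pairs all infarcted libraries were above all sham libraries, although many values were near or under the floor of 3 reads.

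The summed level of the 6 MMPs over that of the 4 TIMPs, per kilobase of exon, describes the balance of their RNA. In fibroblasts this ratio was 0.287, 0.820, 0.359 and 0.303 in P56 MI hearts, against 1.75, 1.63, 1.60 and 1.33 in P56 sham hearts. Neonatal fibroblasts had 2.45, 2.12, 2.59 and 2.27 in P1 MI hearts, against 2.94, 2.98, 2.79 and 3.06 in P1 sham hearts. All adult infarcted libraries lay below all others, replicate 2 being nearest to them. Without division by length the ratio was 0.844, 1.17, 0.958 and 0.838 in P56 MI, against 1.37, 1.31, 1.26 and 0.964 in P56 sham fibroblasts, and those groups overlapped. The summed TIMP level was 837 ± 209.5 CPM per kilobase in P56 MI and 282 ± 48.1 in P56 sham fibroblasts, while the summed MMP level was 332 ± 78.9 in P56 MI and 441 ± 73.4 in P56 sham fibroblasts (SD, n = 4 each). In leukocytes the ratio was instead higher after infarction: 0.776, 0.518, 0.649 and 1.16 in P56 MI, against 0.252, 0.334, 0.335 and 0.203 in P56 sham hearts, and 1.35, 1.30, 1.43 and 1.37 in P1 MI, against 1.16, 0.960, 0.944 and 1.06 in P1 sham hearts. Those groups did not overlap at either age. Timp3 made up 51.2 ± 2.48% of the TIMP sum in P1 sham and 7.97 ± 2.56% in P1 MI leukocytes (SD, n = 4 each). Endothelial markers fell beside it, as given above. The part of RNA from other cells in the leukocyte ratios was not tested. Endothelial cells averaged 0.169 ± 0.0271 in P56 MI, 0.0921 ± 0.0303 in P56 sham, 1.28 ± 0.180 in P1 MI and 0.951 ± 0.131 in P1 sham hearts, and cardiomyocytes 0.197 ± 0.0341, 0.221 ± 0.0892, 0.702 ± 0.109 and 0.788 ± 0.167 in the same order (SD, n = 4 each). In both of these populations every adult library was below every neonatal library; with the deposited gene lengths this held in endothelial cells, while in cardiomyocytes P56 MI replicate 3, at 1.10, exceeded P1 sham replicate 1, at 0.848. Other MMPs, listed below, do not enter these ratios. Without division by length they summed to 276 ± 41.1 CPM in P56 sham cardiomyocytes, beside 31.5 ± 18.4 CPM for the 6 counted here. In P1 sham cardiomyocytes these sums were 195 ± 38.4 and 215 ± 68.4 CPM. Endothelial cells had 254 ± 27.1 and 58.25 ± 6.75 CPM in P56 sham, and 266.5 ± 22.3 and 282 ± 22.4 CPM in P1 sham hearts (SD, n = 4 each). The ratios are descriptions without a test, and their size depends on the gene lengths used: with the deposited lengths, P56 MI leukocytes averaged 5.14 ± 1.79. Per kilobase of exon, MI and sham cardiomyocytes overlapped at both ages. With the deposited lengths their order turned round and they no longer overlapped, at 0.647 ± 0.303 in P56 MI and 0.277 ± 0.112 in P56 sham hearts, and 2.15 ± 0.447 in P1 MI and 1.19 ± 0.233 in P1 sham hearts. The order also turned round without division by length, with overlap at P1 and none at P56, at 0.350 ± 0.0726 and 0.152 ± 0.0599 in P56 MI and sham, and 0.907 ± 0.171 and 0.758 ± 0.153 in P1 MI and sham hearts.

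**Figure D4:**
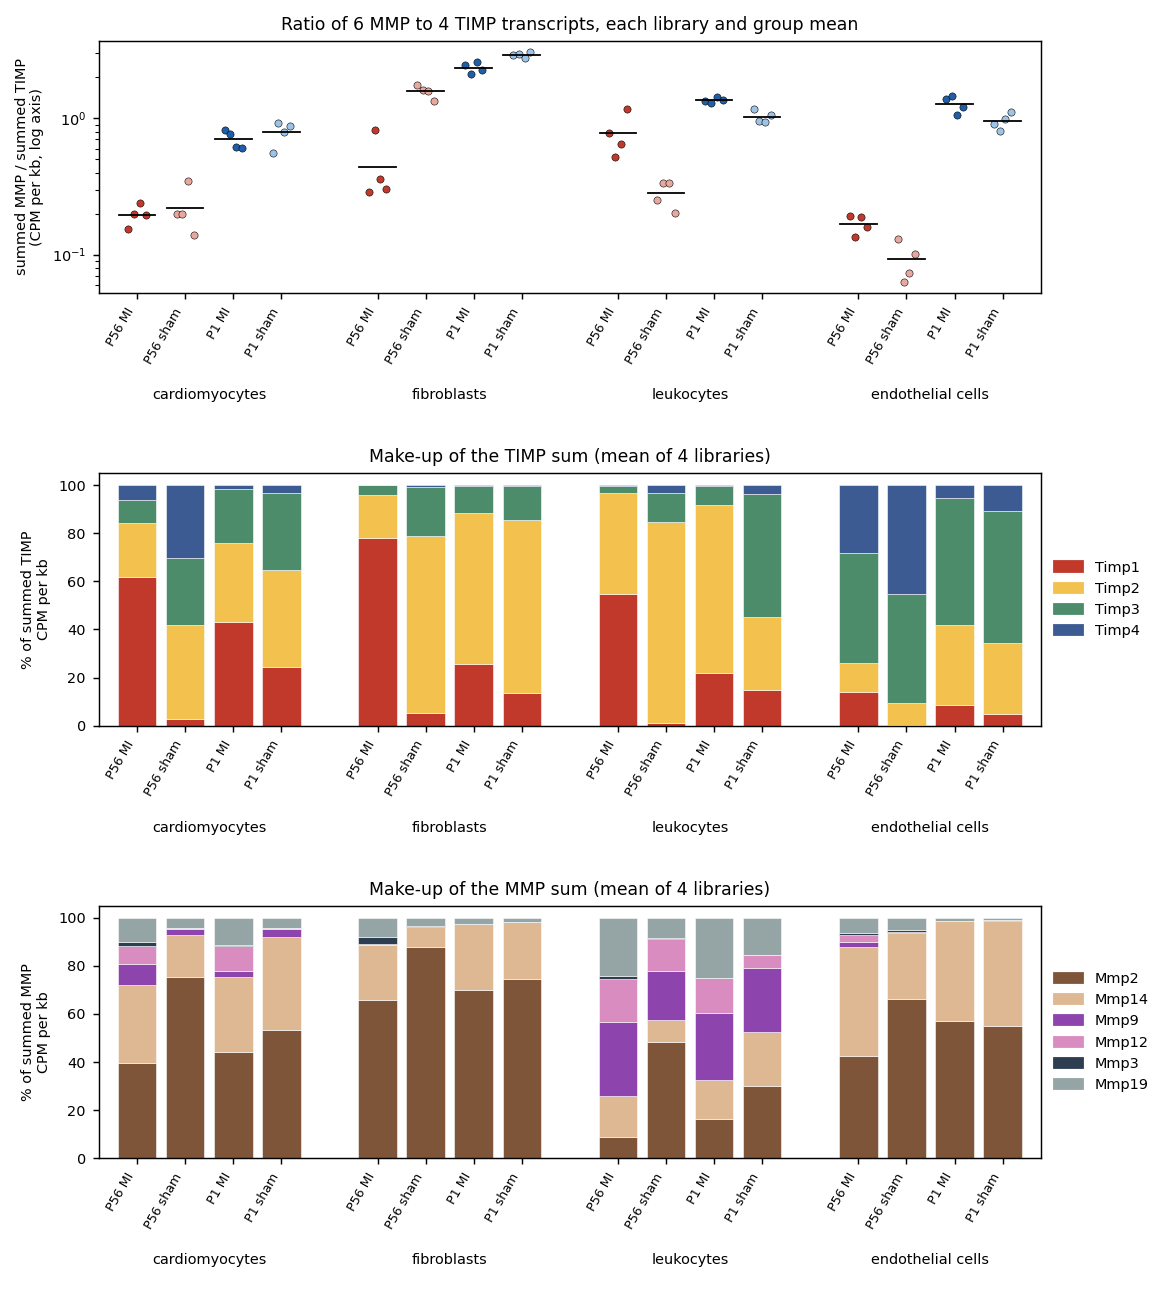
Top, ratio of summed MMP to summed TIMP level per library, in CPM per kilobase of exon on a log axis. Middle and bottom, share of each gene in the TIMP and in the MMP sum, as the mean of 4 libraries in percent. In fibroblasts the ratio averaged 0.442 ± 0.254 in P56 MI and 1.58 ± 0.176 in P56 sham hearts, with Timp1 making up 77.9 ± 15.8% and 5.11 ± 1.53% of the TIMP sum.

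The make-up of both sums shifted with infarction in adults. Timp1 made up 77.9 ± 15.8% of the TIMP sum in P56 MI fibroblasts and 5.11 ± 1.53% in P56 sham fibroblasts (SD, n = 4 each). The corresponding shares were 61.8 ± 11.9% and 2.64 ± 1.49% in cardiomyocytes, 54.6 ± 8.36% and 1.28 ± 0.499% in leukocytes, and 14.1 ± 4.98% and 0.302 ± 0.0716% in endothelial cells. In neonatal fibroblasts they were 25.5 ± 7.16% in P1 MI and 13.4 ± 3.84% in P1 sham hearts. Endothelial cells kept mostly Timp3 and Timp4, which made up 45.7 ± 1.85% and 28.1 ± 3.88% in P56 MI hearts, against 45.1 ± 7.45% and 45.4 ± 9.41% in P56 sham hearts. Among the MMPs, Mmp2 made up 8.80 ± 5.79% of the sum in P56 MI leukocytes and 48.4 ± 9.90% in P56 sham leukocytes, while Mmp9 made up 31 ± 12.3% and 20.1 ± 2.59%. Summed fibroblast markers averaged 4654 CPM in P56 MI and 1123 CPM in P56 sham leukocytes. The part of RNA from other cells in the leukocyte shares was not tested. In fibroblasts Mmp14 made up 23.1 ± 8.13% in P56 MI and 8.19 ± 1.71% in P56 sham hearts.

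Other genes of matrix turnover were read from 4 lists, and counts below are genes that passed the test among those tested. Plasminogen activation yields plasmin, which activates several MMP precursors. After adult infarction its genes rose in 5 of 7 tested in cardiomyocytes, 4 in fibroblasts (2 fell), 6 in leukocytes and 5 in endothelial cells (1 fell). Of all genes tested, 9.69%, 50%, 59.5% and 20.4% changed in these populations in either direction, so the counts of all 4 lists in fibroblasts and leukocytes stand beside a much higher background than those in cardiomyocytes. Serpinb2, an inhibitor of plasminogen activators, averaged 55.4 ± 12.5 CPM in P56 MI and 0.149 ± 0.0900 CPM in P56 sham leukocytes (SD, n = 4 each; log2 difference 6.41 ± 0.24, adjusted p = 1.83e-10), and Plaur, the urokinase receptor, 82.4 ± 34.9 CPM and 7.52 ± 1.72 CPM. At P1, 0 of 7 passed in cardiomyocytes, fibroblasts and endothelial cells by limma (2, 2 and 4 at an unadjusted p under 0.05), and leukocytes had 2 higher and 2 lower, among them Serpinb2 (31.1 ± 12 CPM in P1 MI and 5.78 ± 1.51 CPM in P1 sham) and Plat, tissue plasminogen activator (34.4 ± 6.79 CPM and 163 ± 25.5 CPM). Of all genes tested at P1, 0.343%, 2.37%, 0.216% and 45.2% changed in these populations, in the same order. Endothelial markers also fell in P1 MI leukocytes, as given above, and Plat averaged 163 CPM in P1 sham endothelial cells. The part of endothelial RNA in the leukocyte fall of Plat was not tested.

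Genes for collagen uptake and its breakdown in lysosomes rose in 6 of 8 in leukocytes, 5 in endothelial cells, 4 in cardiomyocytes and 3 in fibroblasts after adult infarction, with none lower; of all genes tested 59.5%, 20.4%, 9.69% and 50% changed. In leukocytes the lysosomal proteinase Ctsd averaged 3744 ± 799 CPM in P56 MI and 912 ± 62 CPM in P56 sham hearts (log2 difference 2.02 ± 0.21, adjusted p = 1.59e-06). At P1, 5 of 8 rose in leukocytes, 2 in fibroblasts, 1 in cardiomyocytes and, by limma, 0 in endothelial cells (2 at an unadjusted p under 0.05). Of all genes tested at P1, 45.2%, 2.37%, 0.343% and 0.216% changed in these populations, in the same order. The 2 called in fibroblasts averaged under 5 CPM in both groups. Ctsd averaged 3311 ± 874 CPM in P1 MI and 857 ± 156 CPM in P1 sham leukocytes, and Ctsb, cathepsin B, 640.4 ± 105 CPM in P1 MI and 342 ± 68.7 CPM in P1 sham cardiomyocytes (SD, n = 4 each).

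Of other MMPs, 12 of 17 listed were in the table. After adult infarction 0 of 7 tested passed in cardiomyocytes by limma (2 at an unadjusted p under 0.05), 4 of 8 fell in fibroblasts, 4 of 10 rose and 3 fell in leukocytes, and 1 of 8 fell in endothelial cells, beside 9.69%, 50%, 59.5% and 20.4% of all genes that changed. Mmp8, the collagenase of neutrophils, averaged 29.4 ± 11.1 CPM in P56 MI and 1.26 ± 1.23 CPM in P56 sham leukocytes (SD, n = 4 each; log2 difference 4.21 ± 0.35, adjusted p = 2.37e-07). Mmp15, a membrane-type relative of Mmp14, averaged 10.4 ± 4.04 CPM in P56 MI and 52.5 ± 21.2 CPM in P56 sham leukocytes (-2.29 ± 0.30, adjusted p = 1.08e-05). Cardiomyocyte and endothelial markers fell in the same libraries, as given above, and the part of these cells in the fall of Mmp15 was not tested. In neonatal fibroblasts Mmp16, also membrane-bound, was the 1 of 8 that fell, with 99.4 ± 17.6 CPM in P1 MI and 163 ± 9.34 CPM in P1 sham hearts. Of all genes tested there, 2.37% changed. A last list of other inhibitors, activators and clearance receptors rose in 3 of 10 in cardiomyocytes, 4 of 9 in fibroblasts (3 fell), 4 of 10 in leukocytes (3 fell) and 2 of 10 in endothelial cells at P56, against the same background; the endothelial share lay at its level. Lcn2, a lipocalin, averaged 283 ± 178 CPM in P56 MI and 10.0 ± 5.41 CPM in P56 sham cardiomyocytes (log2 difference 4.46 ± 0.60, adjusted p = 0.000107). Cd44, which docks Mmp9 and Mmp14 at the cell surface, rose in all 4 populations at P56, with 98.8 ± 6.78 CPM in P56 MI and 18.5 ± 4.31 CPM in P56 sham fibroblasts. Lrp1, an endocytic receptor that clears MMPs, averaged 2423 ± 317 CPM in P56 MI and 757 ± 222 CPM in P56 sham leukocytes.

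The genes whose pattern was most like each member were found by Pearson correlation over the 16 group means, among 12736 genes that averaged at least 5 CPM in some group. The points share populations and ages, so the coefficients in parentheses are descriptions. Mmp2 was closest to Necab1 (0.988), Thbs3 (0.985) and Dact1 (0.980), and Mmp14 to Fstl1 (0.969), Col5a2 (0.968) and S100a11 (0.965). Mmp9 was closest to Csf3r (0.990), Ncf4 (0.987) and Fgr (0.987), and Mmp12 to Itgax (0.974), Trem2 (0.973) and Il7r (0.972). Genes close to Mmp3 included Ngef (0.947) and Dio3 (0.943), and Mmp19 was closest to Adora2b (0.945), Slc7a2 (0.945) and Hp (0.936). Among the inhibitors, Timp1 was closest to Steap1 (0.899), Cxcl5 (0.895) and Ltbp2 (0.872), Timp2 to S1pr2 (0.981), Pmp22 (0.978) and Champ1 (0.958), Timp3 to Pcdhb14 (0.955), Kazn (0.951) and Mast4 (0.951) and Timp4 to Vwa3a (0.973), Sybu (0.967) and Nepn (0.962). Between the members themselves, the highest coefficient was 0.936, for Mmp9 with Mmp12, followed by 0.853, for Mmp2 with Mmp14, and the lowest was -0.784, for Mmp19 with Timp4.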

How the data were processed

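The authors sequenced stranded total RNA libraries after ribosomal RNA removal, per the labels' protocols. The tools Trimmomatic, STAR, HTSeq and edgeR appear in the submitters' processing notes with no version. Beside them stand the genome build names GRCm38, mm10 and GRCh38, whose use is not described. The deposited signal per gene and library, which the authors named CPM, is a normalised read count. All values (100%, tolerance 0.01) were whole multiples of 1 read, so reads were recovered. The deposited table also gives gene length in bases, another unit. Those lengths are far below the exon union of GENCODE M21 for Mmp9, Mmp12, Mmp14 and Timp3, so exon-union lengths, chosen after seeing the data, were used per kilobase.

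Groups came from the labels. The 96 pairs of libraries within groups held 0 identical ones, and each library is 1 replicate. The main test was limma 3.58.1 (R 4.3.3) on log2(CPM + 0.5) with a variance trend, over the 16 libraries of a population (32 sham libraries between populations), keeping genes that reached 1 CPM in 4 or more of them. It was tested on simulated data. Alternatives were count tests on the recovered reads with DESeq2 1.42.0 and with edgeR 4.0.16, other pseudocounts, filters and scalings, a replicate block and leaving out libraries. Named genes were all 10 members, their 3 most similar genes, and per list at most the 3 largest called changes where 1 of the groups averaged 5 CPM or more; some genes that this rule names are not reported here. Members and lists were chosen with earlier results of these data known. Chromatin data were not analysed here.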

Additional observations from a re-analysis of the deposited data

Results flagged for a closer look

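Of the 160 groups of 4 libraries (10 genes in 16 groups), 15 held a library that stood apart from the other 3 by Dixon's criterion at the 95% level, where chance alone gives about 1 in 20. P56 MI fibroblasts replicate 2 did so for Mmp2, at 1226 CPM with the others at 567.5 to 623 CPM, and for Timp2, at 812.5 CPM with the others at 383 to 442 CPM. P1 sham endothelial cells replicate 4 did so for Mmp19, at 3.69 CPM (others 1.57 to 1.74 CPM), and Timp2, at 83.4 CPM (others 72.3 to 74.1 CPM). In P1 sham endothelial cells replicate 2, Timp4 was 67.9 CPM (others 30.2 to 35.1 CPM) and Mmp3 0.0411 CPM, which is 1 read (others at 0 reads). Mmp12 was 26.8 CPM in P56 MI cardiomyocytes replicate 3 (others 2.74 to 6.07 CPM), and Mmp14 30.7 CPM in P56 MI endothelial cells replicate 2 (others 76.7 to 84.9 CPM). Timp2 was 70.6 CPM in P56 sham cardiomyocytes replicate 3 (others 43.6 to 46.6 CPM), and Mmp3 0.0701 CPM, also 1 read, in P56 sham cardiomyocytes replicate 4 (others at 0 reads). With the others at 0 reads any read meets the criterion, so the rate of 1 in 20 does not apply to these Mmp3 cases. Among fibroblasts, Mmp3 was 6.00 CPM in P56 sham replicate 4 (others 3.74 to 4.09 CPM) and Mmp19 47.3 CPM in P1 MI replicate 4 (others 32.2 to 33.5 CPM). Among leukocytes, Mmp9 was 103 CPM in P1 MI replicate 4 (others 109 to 110.2 CPM), Timp1 8.53 CPM in P1 sham replicate 4 (others 11.6 to 12.3 CPM) and Timp4 29.1 CPM in P1 sham replicate 2 (others 13.8 to 15.8 CPM).

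The response to infarction differed between the ages, by limma's interaction test, for 17 combinations of gene and population. Of all genes tested, 45.2% passed this test in leukocytes, 31.7% in fibroblasts, 1.75% in cardiomyocytes and 5.41% in endothelial cells. In leukocytes the log2 response at P56 minus that at P1 was 5.22 ± 0.38 for Timp1, 3.16 ± 0.27 for Mmp14, 2.51 ± 0.60 for Mmp19, 2.30 ± 0.50 for Mmp9, 1.76 ± 0.26 for Mmp3, 1.55 ± 0.27 for Timp3, 1.39 ± 0.42 for Timp4 and -1.29 ± 0.28 for Timp2. In fibroblasts it was 4.36 ± 0.46 for Timp1, 1.55 ± 0.52 for Mmp3, 0.94 ± 0.24 for Mmp14, -0.80 ± 0.29 for Timp3 and -2.15 ± 0.30 for Timp4. In cardiomyocytes it was 4.11 ± 0.59 for Timp1 and 2.20 ± 0.45 for Mmp14, and in endothelial cells 3.58 ± 0.37 for Timp1 and 1.96 ± 0.51 for Mmp12.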

How the results depend on the processing

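Of 3988 values for single genes under alternative settings, 3862 counted as the same, 76 lost a call, 44 gained one, 5 moved and 1 reversed. The reversed value was the leukocyte interaction of Mmp3, at -0.69 with edgeR. Values counted as the same kept their side of the threshold. They also kept their direction, except that an uncalled value could change it by under 1 standard error. Where the library left out lay outside the contrast, the estimate stayed and only its standard error and p could change. Of 980 counts of called members, 40 moved by over 1.5 times. In cardiomyocytes the neonatal count (1) became 2 with pseudocount 1, quantile normalization, DESeq2 or without 4 libraries singled out earlier (P56 MI and sham cardiomyocytes replicate 3, P1 MI and sham endothelial cells replicate 4). The cardiomyocyte interaction count (2) became 1 without the libraries over 5% 18S RNA and 4 without those 4 libraries. In fibroblasts the adult count (8) became 4 with a fold of at least 2, and the interaction count (5) became 3. The neonatal fibroblast count (0) became 1 with DESeq2 or with only the compared libraries. In endothelial cells the adult count (6) became 3 with a filter at 5 CPM, and the neonatal count (0) became 1 with DESeq2 or without those 4 libraries. The endothelial interaction count (2) became 1 with pseudocount 0.1, a filter at 5 CPM, quantile normalization or without those 4 libraries. Between populations at P56, the count for cardiomyocytes against leukocytes (8) became 5 with a fold of at least 2, and that against endothelial cells (5) became 3 with a fold of at least 2 or with edgeR. Leaving out single libraries gave 0 to 1 in neonatal fibroblasts (1 without P56 MI replicate 2), 0 to 1 in neonatal endothelial cells (1 without P1 sham replicate 4), 3 to 7 for the fibroblast interaction, 1 to 4 for the endothelial interaction and 3 to 6 for P56 cardiomyocytes against endothelial cells. Mmp3 in leukocytes gave no value without any 1 of the 4 P56 MI libraries, since it then failed the filter. Of 32 values of the MMP to TIMP ratio under other lengths, 24 moved by more than 1 SD.

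Within a population, replicate numbers did not pair the libraries of different ages or operations. Same-numbered libraries there correlated at -0.426 to 0.364, with no comparison above 0.1 in every pair, and at most 2 of 4 correlated best with their own number. Pairing of the same number across populations was not tested, and the comparisons between populations treat their libraries as unpaired. Among P56 MI libraries, Mmp14 was lowest in replicate 2 in every population. A replicate block took the endothelial interaction count to 1. The median of all genes was shifted by 0.135 on the log2 scale in the cardiomyocyte interaction. A floor of 3 reads lay between 0.102 and 0.409 CPM. The filter on low values kept Mmp3 in cardiomyocytes and endothelial cells, and Mmp9 and Mmp12 in fibroblasts, from being tested.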
